A study of Homo sapiens with 6 samples.

Results

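Transcripts of ephrins and Eph receptors were followed in clones of MiaPaCa2, an established line of human pancreatic ductal adenocarcinoma cells. The genes were the 10 rows of the count table, of 26334 gene symbols, that carry the symbols EFNA1, EFNA3, EFNA4, EFNA5, EFNB1 and EFNB2 (ligands) and EPHA2, EPHA4, EPHB2 and EPHB4 (receptors). They were chosen by symbol, but selected on their counts and fold changes in this very comparison, so their differences between groups are given here as a description and are no evidence for one another. The 3 ZEB1-KO clones came from GFP-positive cells electroporated with a ZEB1 guide in the plasmid pSpCas9-2A-GFP, and the 3 WT clones from GFP-positive cells electroporated with pSpCas9-2A-GFP. Each library was made by SMART-Seq2 from 2000 cells of 1 clone, so that a difference that comes with the ZEB1 deletion and one between single clones cannot be told apart in any 1 library. ZEB1 is a zinc-finger repressor of epithelial genes, and the comparison addressed which genes differ in level when it is deleted.

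The libraries held 18909305 to 36798770 counts in ZEB1-KO clones and 26242238 to 42876693 counts in WT clones. ZEB1 itself had 3.34, 3.46 and 11.5 CPM (counts scaled to 1000000 per TMM-adjusted library) in ZEB1-KO replicates 1, 2 and 3, against 34.0, 31.2 and 33.6 CPM in WT replicates 1, 2 and 3, and the log2 fold change, -2.43 (SE 0.49), missed the threshold of 0.05 (adjusted p = 0.0930, edgeR's quasi-likelihood test). Without ZEB1-KO replicate 3 it was -3.27 and passed (adjusted p = 0.0137 by that test), and over all alternatives run the adjusted p ranged from 3.28e-05 to 0.278. In the authors' deposited table ZEB1 passed as well (adjusted p = 0.000391, likelihood ratio test). Of 10 duct and epithelial markers, 5 had over 3 counts in every library, KRT8, KRT18, KRT19, SOX9 and MUC1, while EPCAM and CDH1 had at most 4 counts in any library, CFTR had 0, and KRT7 had 0 to 25. Of 6 endothelial markers, which matter here because vessels carry EFNB2 and EPHB4, 4 had at most 4 counts in any library, and the 6 summed to 0.642 to 3.14 CPM in ZEB1-KO and 0.446 to 0.939 CPM in WT clones, mostly from PECAM1 and CDH5. The 10 duct and epithelial markers summed to 4094 to 5318 CPM in ZEB1-KO and 2188 to 3293 CPM in WT clones, mostly from KRT8 (1940 CPM in ZEB1-KO and 816.6 CPM in WT clones on average) and KRT18 (2588 CPM in ZEB1-KO and 1810 CPM in WT clones). SOX9 was on the other side, with averages of 38.1 CPM in ZEB1-KO and 79.95 CPM in WT clones. The part of either marker list in the results was not tested.

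Ephrins are cell-surface ligands read by Eph receptor tyrosine kinases on a neighbouring cell, so the signal needs contact. Ephrin-A ligands are held by a lipid (GPI) anchor and bind mainly EphA receptors, whereas ephrin-B ligands cross the membrane and bind mainly EphB receptors, with EPHA4 known to bind both classes. Signals run forward into the receptor's cell and, for ephrin-B ligands above all, in reverse into the ligand's cell, where they steer adhesion, repulsion and the sorting of cells into compartments. In epithelia EPHA2 and its ligand ephrin-A1 are known for their place at cell-cell contacts, and both are widely studied in carcinomas.

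ZEB1 is known to bind E-boxes of the letters CAGGTG and the related CAGGTA, so RefSeq promoter windows (GRCh38.p14, 250 bases before to 50 after each start) of the members were searched for both on either strand. All 10 members matched, with 12 windows. CAGGTG was found in 3 windows, those of EFNB2 and of 2 neighbouring EPHB2 starts, and CAGGTA in 0. The EPHB2 windows overlap and hold the same site. Among all 35116 windows 20.6% hold CAGGTG and 9.83% hold CAGGTA. By gene, 2 of the 10 members held CAGGTG, where 24.1% of all genes with a window did. Below are the windows of EPHB2 and EFNB2, the members with the most negative fitted differences and the ones with the motif, and of EFNA3 and EFNA4, the members whose ZEB1-KO and WT values did not overlap. They are written 5′ to 3′ on the gene's strand, and capitals mark CAGGTG or its reverse complement.
EPHB2 (chr1:22710588-22710887, plus strand): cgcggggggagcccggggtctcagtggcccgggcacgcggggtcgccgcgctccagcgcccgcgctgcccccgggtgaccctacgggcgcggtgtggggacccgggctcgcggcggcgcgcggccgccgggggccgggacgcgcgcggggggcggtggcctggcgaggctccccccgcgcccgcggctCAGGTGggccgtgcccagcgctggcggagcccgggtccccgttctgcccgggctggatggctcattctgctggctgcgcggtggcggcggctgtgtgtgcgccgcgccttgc
EFNB2 (chr13:106535613-106535912, minus strand): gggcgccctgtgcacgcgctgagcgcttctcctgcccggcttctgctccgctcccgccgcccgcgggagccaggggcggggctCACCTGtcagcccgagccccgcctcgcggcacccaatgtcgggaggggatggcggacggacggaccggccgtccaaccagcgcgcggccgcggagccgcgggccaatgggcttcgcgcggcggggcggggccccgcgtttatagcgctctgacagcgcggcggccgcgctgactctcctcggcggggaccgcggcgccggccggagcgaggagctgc
EFNA3 (chr1:155078587-155078886, plus strand): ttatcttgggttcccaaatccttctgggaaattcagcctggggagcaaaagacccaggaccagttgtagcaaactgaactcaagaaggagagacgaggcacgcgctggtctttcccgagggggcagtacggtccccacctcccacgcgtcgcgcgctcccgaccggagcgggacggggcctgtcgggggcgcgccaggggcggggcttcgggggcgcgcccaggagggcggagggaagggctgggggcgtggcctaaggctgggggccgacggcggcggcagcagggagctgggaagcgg
EFNA4 (chr1:155063490-155063789, plus strand): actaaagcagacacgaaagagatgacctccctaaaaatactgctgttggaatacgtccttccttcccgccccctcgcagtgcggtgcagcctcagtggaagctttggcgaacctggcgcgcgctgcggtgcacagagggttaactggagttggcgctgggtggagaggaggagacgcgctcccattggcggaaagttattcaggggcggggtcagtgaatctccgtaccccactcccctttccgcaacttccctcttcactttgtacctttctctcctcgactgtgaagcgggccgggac
The motif began 62 bases before the EPHB2 start and 167 bases before the EFNB2 start. The shares of G and C were 83.0% for EPHB2, 78.7% for EFNB2, 69.3% for EFNA3 and 58.3% for EFNA4, against a median of 58.7% over all windows. A match to these letters is a description of the window, and ZEB1 binding was not measured in the data used here.

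EFNA3, which encodes a GPI-anchored ephrin-A ligand, differed most between the groups. It had 20, 63 and 31 counts in ZEB1-KO replicates 1, 2 and 3, against 3, 2 and 2 counts in WT replicates 1, 2 and 3. In CPM these were 0.998, 1.56 and 0.965 in ZEB1-KO clones and 0.0687, 0.0617 and 0.0810 in WT clones. Every ZEB1-KO value lay above every WT value, and each WT library was at or under the 3 counts that serve here as the floor of detection. The pooled ratio of ZEB1-KO over WT was 17.7, with an exact 95% counting interval of 8.32 to 45.05. Reads copied by PCR carry no molecular identifiers here, so such intervals and floors leave out all but counting error. In these bulk libraries fewer cells with a transcript and less of it per cell cannot be told apart. The fitted log2 fold change was 4.01 (SE 0.48) and depends on the prior count, because the WT values are so low. EFNA3 entered the test only through its ZEB1-KO libraries, 3 of which reached the filter's level against 0 in WT.

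EFNA4 and EFNA1, which encode ephrin-A4 and ephrin-A1, lie beside EFNA3 on chromosome 1. EFNA4 had 9.73, 14.6 and 13.7 CPM in ZEB1-KO replicates 1, 2 and 3, against 9.53, 7.80 and 5.47 CPM in WT replicates 1, 2 and 3. The groups did not overlap, by a margin between 9.73 CPM in ZEB1-KO replicate 1 and 9.53 CPM in WT replicate 1. The log2 fold change was 0.74 (SE 0.30.) EFNA1, the main ligand of EPHA2, had 25.4, 29.9 and 17.8 CPM in ZEB1-KO replicates 1, 2 and 3, against 21.7, 21.6 and 24.6 CPM in WT replicates 1, 2 and 3. The ZEB1-KO clones lay on both sides of the WT clones, and the log2 fold change was 0.11 (SE 0.25.) RefSeq lists a transcript that reads through from EFNA4 into EFNA3 and another from ADAM15 into EFNA4, and neither has a row of its own in the counts, so the split of reads between these neighbours is uncertain.

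EFNA5, another GPI-anchored ligand, which is known to bind EPHA4 and also EPHB2, was the most counted ephrin. It had 50.4, 132.8 and 96.9 CPM in ZEB1-KO replicates 1, 2 and 3, against 68.1, 68.1 and 29.7 CPM in WT replicates 1, 2 and 3. ZEB1-KO replicates 2 and 3 were above all WT clones and ZEB1-KO replicate 1 was below 2 of them. The log2 fold change was 0.76 (SE 0.42), and 0.41 without ZEB1-KO replicate 2.

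The ephrin-B ligands among the members were scarce. EFNB1, which encodes the transmembrane ephrin-B1, had 1.75, 2.74 and 1.06 CPM in ZEB1-KO replicates 1, 2 and 3, against 1.37, 1.26 and 0.729 CPM in WT replicates 1, 2 and 3, with overlapping groups and a log2 fold change of 0.71 (SE 0.46). EFNB2, the arterial ligand of EPHB4, had 1.10, 0.766 and 0.685 CPM in ZEB1-KO replicates 1, 2 and 3, against 2.38, 1.48 and 0.891 CPM in WT replicates 1, 2 and 3. ZEB1-KO replicate 1 exceeded WT replicate 3, the other ZEB1-KO clones were lower than every WT clone, and the log2 fold change was -0.92 (SE 0.46). Without WT replicate 1, which had 104 counts, it was -0.48.

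Of the receptors, EPHA2 and EPHA4 were the abundant ones. EPHA2, the receptor for ephrin-A1, had 49.8, 80.8 and 37.8 CPM in ZEB1-KO replicates 1, 2 and 3, against 48.9, 51.8 and 49.1 CPM in WT replicates 1, 2 and 3. Its WT clones were close together, at 49.95 CPM ± 1.65 (SD, n = 3), while the ZEB1-KO clones spread around them at 56.1 CPM ± 22.2 (SD, n = 3). The log2 fold change was 0.17 (SE 0.29), and -0.19 without ZEB1-KO replicate 2. EPHA4 had 41.7, 109.3 and 106.2 CPM in ZEB1-KO replicates 1, 2 and 3, against 73.7, 137.1 and 121.5 CPM in WT replicates 1, 2 and 3. The lowest clone of each group was its replicate 1, the groups overlapped, and the log2 fold change was -0.37 (SE 0.39.) Without ZEB1-KO replicate 1 it was -0.04.

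EPHB4, the receptor for ephrin-B2, had 7.33, 16.7 and 5.98 CPM in ZEB1-KO replicates 1, 2 and 3, against 7.81, 7.90 and 6.73 CPM in WT replicates 1, 2 and 3. ZEB1-KO replicate 2 stood above all other clones, and the log2 fold change of 0.42 (SE 0.40) became -0.17 without it. EPHB2, which in mouse intestine helps to keep epithelial cells at their place along the crypt, had 3, 9 and 41 counts in ZEB1-KO replicates 1, 2 and 3, against 90, 31 and 76 counts in WT replicates 1, 2 and 3. In CPM these were 0.150, 0.222 and 1.28 in ZEB1-KO clones and 2.06, 0.956 and 3.08 in WT clones. ZEB1-KO replicate 3 exceeded WT replicate 2, so the groups overlapped, while ZEB1-KO replicates 1 and 2 were lower than every WT clone. The log2 fold change was -1.85 (SE 0.79), and -3.37 without ZEB1-KO replicate 3. That library also had the highest ZEB1 level of its group, 11.5 CPM, and whether the remaining ZEB1 transcript bears on EPHB2 was not tested.

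**Figure D1:**
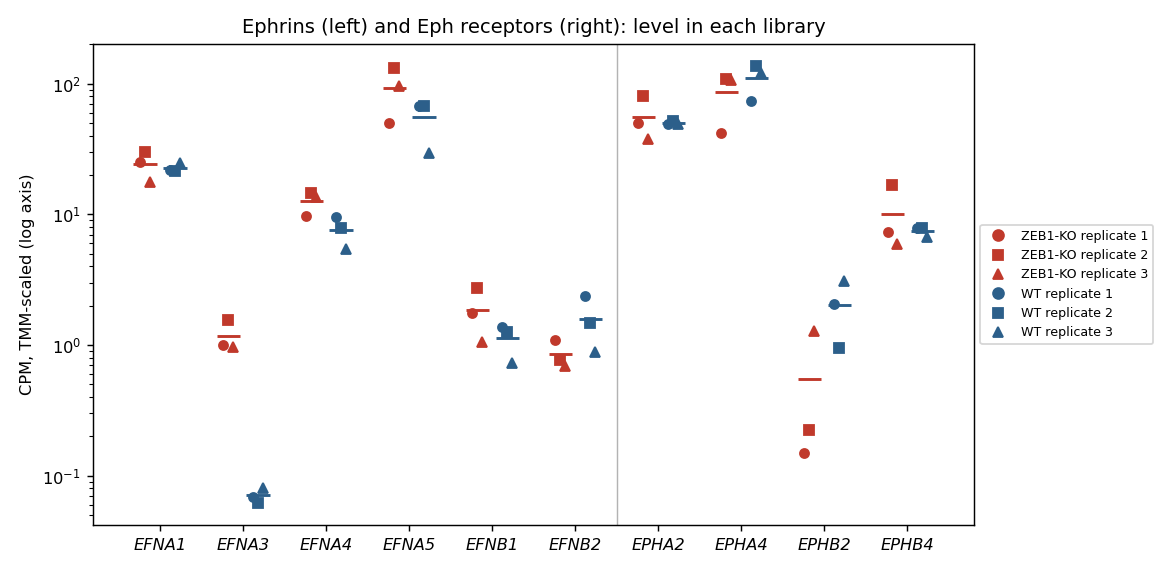
Level of each ephrin and Eph receptor in every library, as TMM-scaled CPM on a log axis. Red symbols are the 3 ZEB1-KO libraries and blue symbols the 3 WT libraries, with the replicate number given by the shape and the group mean by a bar. EFNA3 separates the groups by the widest gap, with ZEB1-KO values from 0.965 CPM and WT values up to 0.0810 CPM, and EPHB2 has the widest spread within a group.

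Set side by side, the log2 fold changes of the 10 members were positive for 7 and negative for 3, their median being 0.30, while the 13659 genes tested had 6753 positive, 6906 negative and a median of -0.01. With edgeR's quasi-likelihood test and Benjamini-Hochberg adjustment over all genes tested, 1 member was called higher, EFNA3 (adjusted p = 0.0271), where 0.117% of all genes were called higher. Since the members were picked with this comparison known, nothing is read from that share. None of the members was called lower by this test (0 of 10), where 0.0586% of all genes were, or by DESeq2, where 2.78% of its genes were. EPHB2 alone was lower with an unadjusted p under 0.05, where 8.04% of all genes tested were. At that level 2 members were higher, EFNA3 and EFNA4, where 9.64% of all genes tested were. The 9 members other than EFNA3 had adjusted p-values between 0.257 and 0.853, which does not show that they were alike in both groups, as the intervals of their differences are wide. For EFNA1 the 95% interval of the log2 fold change ran from -0.47 to 0.68, for EPHA2 from -0.49 to 0.82, and for EPHB2 from -3.66 to -0.03. The CPM of the groups did not overlap for 2 members, EFNA3 and EFNA4, both higher in ZEB1-KO clones, against 11.9% of all genes tested that were higher without overlap. The EFNA3 call was lost when any 1 library was left out, with adjusted p-values of 0.0533 (without ZEB1-KO replicate 3) to 0.153 (without WT replicate 3) and log2 fold changes of 3.74 to 4.13. Over all genes, 24 were called with all 6 libraries, against 5 (without WT replicate 3) to 25 (without ZEB1-KO replicate 3). The EFNA3 call was also lost with the replicate number as a block (adjusted p = 0.0662). It stayed past the threshold with DESeq2 (adjusted p = 9.47e-05), which called 4.34% of its genes higher. The same held for edgeR's likelihood ratio test (adjusted p = 2.25e-07), which called 2.75% higher. The adjusted p of EFNA3 thus ranged from 2.25e-07 to 0.153 over its alternatives. All of these fits reuse the values known when EFNA3 was chosen, so they are no separate support. In the authors' deposited table, which lists 9 of the members without EFNA3, none had an adjusted p below 0.05, the lowest being 0.172 for EPHB2, and 4.75% of its genes did.

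**Figure D2:**
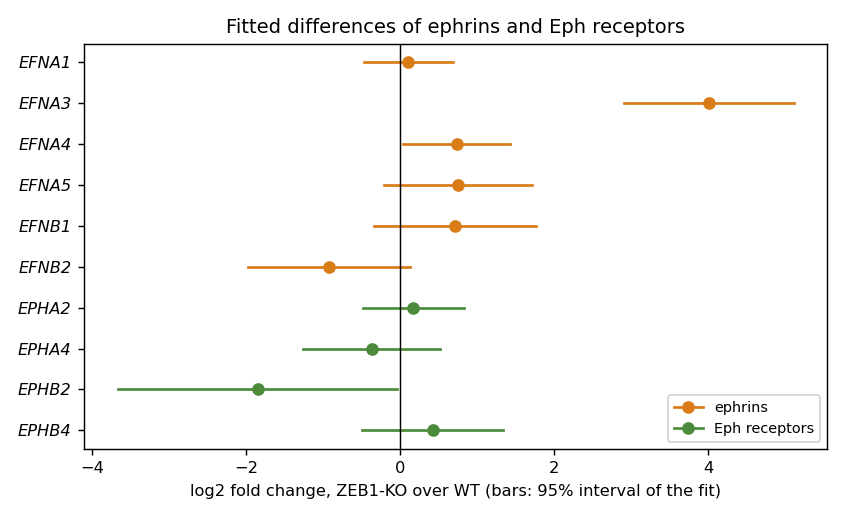
Fitted log2 fold change of each member, ZEB1-KO over WT, with the 95% interval of edgeR's quasi-likelihood fit as a bar, for ephrins in orange and Eph receptors in green. EFNA3 stands apart at 4.01, the intervals of EFNA4 and EPHB2 end near 0, and the other 7 intervals include 0.

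Among the clones of a group, ZEB1-KO replicate 2 was high for most of these genes, though not for these genes alone. It had the highest value of its group for 8 of the 10 members, all but EFNB2 and EPHB2, and the lowest for 0. The share of all genes highest in that clone was not computed, so nothing is read from this count. Beyond the members, SHC1 and APH1A were also highest there among the ZEB1-KO clones, while YES1 and PARD6B were lowest there. In that library 8 of the 10 members lay above their group mean, where 51.5% of all genes tested did. Relative to the mean of the 3 ZEB1-KO clones, the median of the members was 0.45 higher in log2 CPM in replicate 2, and -0.24 and -0.25 in replicates 1 and 3. Over all genes tested the corresponding medians were 0.02 in replicate 2, 0.00 in replicate 1 and -0.01 in replicate 3. In the WT clones the members' medians were 0.12, 0.06 and -0.09 in replicates 1, 2 and 3. Without ZEB1-KO replicate 2, 4 of the 10 members had a positive log2 fold change and their median was -0.12, and EFNA1, EPHA2 and EPHB4 changed sign. EFNA3, EFNA4, EFNA5 and EFNB1 kept positive values there, of 3.74, 0.62, 0.41 and 0.30.

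**Figure D3:**
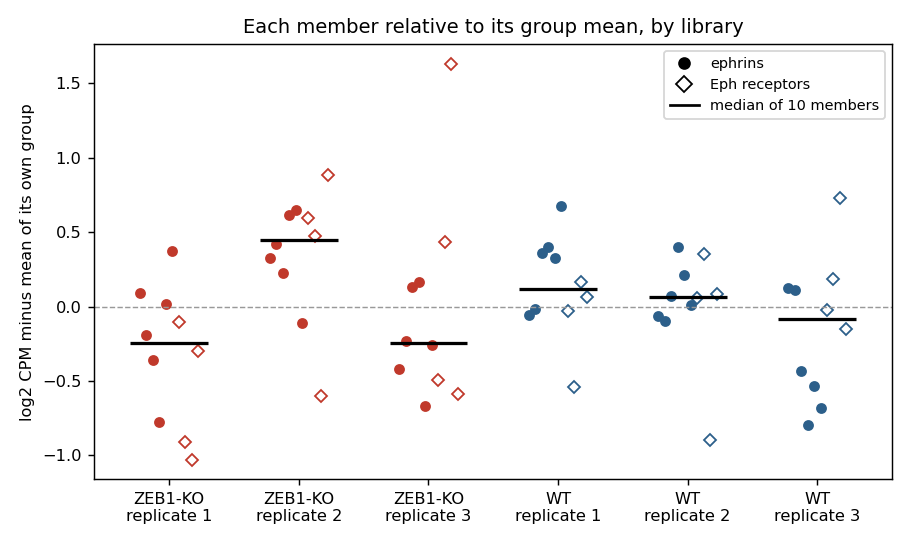
Log2 CPM of each member minus the mean of its own group, one column of points per library, with filled circles for ephrins, open diamonds for Eph receptors and a black bar for the median of the 10 members. The bar of ZEB1-KO replicate 2 sits at 0.45, above those of the other 5 libraries, which lie between -0.25 and 0.12.

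Levels of different genes were compared on the authors' TPM scale (transcripts scaled to 1000000 per library), which corrects for length. It lists 9 members and not EFNA3. Averaged over the 6 libraries, EFNA1 had 23.6 TPM, EPHA4 22.7 TPM, EFNA5 22.6 TPM and EPHA2 21.2 TPM. The ranges of these 4 genes over the libraries overlapped (17.9 to 35.2 TPM for EFNA1, 10.2 to 30.3 TPM for EPHA4, 7.80 to 45.9 TPM for EFNA5 and 15.8 to 37.6 TPM for EPHA2), so that they have no clear order. EFNA4 followed at 13.0 TPM, with a range of 6.09 to 21.5 TPM that reaches into theirs, and EPHB4 at 3.23 TPM, with a range of 2.16 to 7.08 TPM. EFNB1 at 0.722 TPM, EFNB2 at 0.425 TPM and EPHB2 at 0.174 TPM were lower, and the ranges of neighbours in this order overlapped again. The highest value of EFNB1, 1.52 TPM, was below the lowest of EPHB4, 2.16 TPM, which was the one gap in the order of the members. EFNB3, an ephrin-B gene outside the members, averaged 1.44 TPM in ZEB1-KO and 1.33 TPM in WT clones. Its range of 0.657 to 2.21 TPM spans that gap. In both groups most of the listed transcripts were thus ephrin-A and EphA, on this TPM scale.

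Ephrin-A transcripts (EFNA1, EFNA4 and EFNA5) summed to 54.2, 102.6 and 67.0 TPM in ZEB1-KO replicates 1, 2 and 3, against 53.0, 42.5 and 35.9 TPM in WT replicates 1, 2 and 3. Each ZEB1-KO sum exceeded each WT sum, the closest pair being 54.2 TPM in ZEB1-KO replicate 1 and 53.0 TPM in WT replicate 1. TPM values are not scaled by TMM, and over genes with a mean of at least 1 TPM the median ZEB1-KO over WT difference on the log2(TPM + 1) scale was 0.23, so that genes in general were higher on this scale in ZEB1-KO clones. The gap of the closest pair is smaller than that general difference, so the separation of the ephrin-A sums need not hold with TMM scaling. The EphA receptors EPHA2 and EPHA4 summed to 30.6, 67.9 and 42.3 TPM in ZEB1-KO replicates 1, 2 and 3, against 36.3, 43.7 and 42.9 TPM in WT replicates 1, 2 and 3, with overlapping groups. A share within a library does not depend on the scaling between libraries. Ligands made up 62.5%, 58.2% and 60.3% of the summed TPM of the 9 listed members in ZEB1-KO replicates 1, 2 and 3, against 58.1%, 48.5% and 44.5% in WT replicates 1, 2 and 3. The groups did not overlap, with 58.2% as the lowest ZEB1-KO and 58.1% as the highest WT share. The means were 60.3% ± 2.14 in ZEB1-KO clones and 50.4% ± 6.96 in WT clones (SD, n = 3 each), a difference of 9.95 percentage points, which was 7.04 without WT replicate 3 and 13.8 without WT replicate 1. ZEB1-KO replicate 2 was not apart in this share although its summed levels were.

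**Figure D4:**
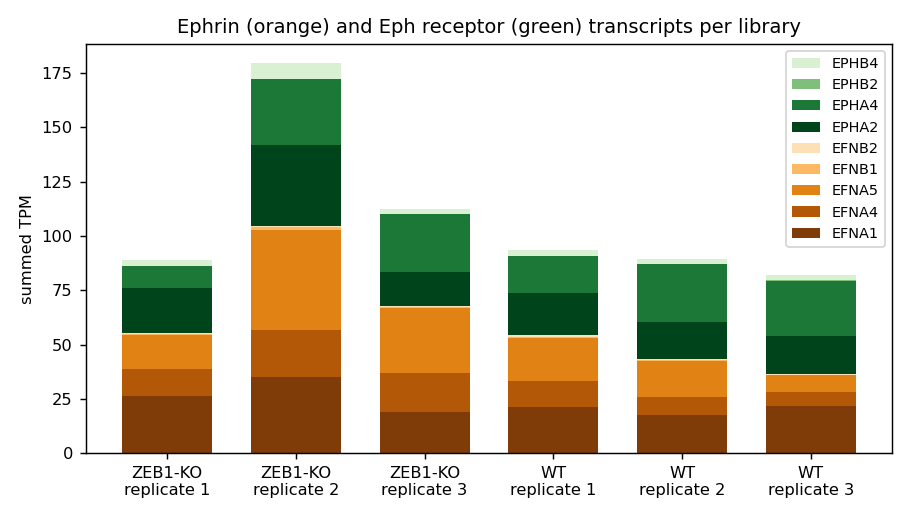
Summed TPM of the 9 listed members in each library, stacked by gene, with ephrins in orange shades and Eph receptors in green shades. ZEB1-KO replicate 2 has the tallest bar, with 104.4 TPM of ephrins and 75.0 TPM of receptors, and EFNB1, EFNB2 and EPHB2 are thin layers in every library.

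The genes most like each of the 3 members with the largest absolute log2 fold change were found by the root mean square difference of their centred log2 CPM over the 6 libraries, among genes of a mean of at least 5 CPM. For EFNA3 these were PTGFRN (0.29), RHOBTB3 (0.37) and LY6E (0.43). PTGFRN had 11.3, 10.5 and 6.66 CPM in ZEB1-KO replicates 1, 2 and 3, against 1.12, 1.08 and 1.46 CPM in WT replicates 1, 2 and 3. For EPHB2 they were SOWAHC (0.31), ZEB1 (0.58) and IKBIP (0.59). SOWAHC had 1.00, 1.93 and 7.60 CPM in ZEB1-KO replicates 1, 2 and 3, against 11.6, 6.35 and 11.02 CPM in WT replicates 1, 2 and 3, with the same order of libraries within the ZEB1-KO group as EPHB2. For EFNB2 they included TTC3 (0.18) and NMNAT1 (0.21), both with their highest level in WT replicate 1. These are likenesses of pattern over 6 libraries that share the contrast between groups.

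The surroundings of the ephrin-A cluster on chromosome 1 were examined through 12 neighbouring genes, of which 10 were tested. None was called in either direction (0 of 10 with edgeR's quasi-likelihood test, where 0.117% of all genes tested were called higher and 0.0586% lower). At an unadjusted p under 0.05, 3 of the 10 were higher, where 9.64% of all genes tested were. By DESeq2 1 was called higher, where it called 4.34% of its genes higher, and the likelihood ratio test called ZBTB7B higher, where it called 2.75% higher. For 7 of the tested neighbours the log2 fold change was positive, and the median of the 10 was 0.93. ZBTB7B, a zinc-finger transcription factor gene, had a log2 fold change of 2.05 (adjusted p = 0.150) from low levels, namely 18, 30 and 13 counts in the ZEB1-KO clones, against 4, 10 and 2 counts in the WT clones. ADAM15, a metalloprotease gene next to EFNA4, had 1.45 (0.73 without ZEB1-KO replicate 2), THBS3 had 1.09, MUC1, an epithelial mucin gene, 0.96, TRIM46 0.91 and SLC50A1 0.37. Without ZEB1-KO replicate 2, THBS3 had 0.31, MUC1 0.56, TRIM46 0.63 and SLC50A1 0.19. KRTCAP2, MTX1 and DPM3 had negative values of -0.25, -0.41 and -0.80, and DCST1 and DCST2 had at most 3 counts in any library. Windows of wider surroundings were added after the data were seen. In the order of the RefSeq table, the 18 tested genes nearest to EFNA3 on either side, the ephrins left out, had a median of 0.28, the nearest 48 a median of 0.15 and the nearest 198 a median of 0.11, against -0.01 over all genes tested. EFNA3 at 4.01 was above each of the tested neighbours, while EFNA1 was below 7 of the 10.

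**Figure D5:**
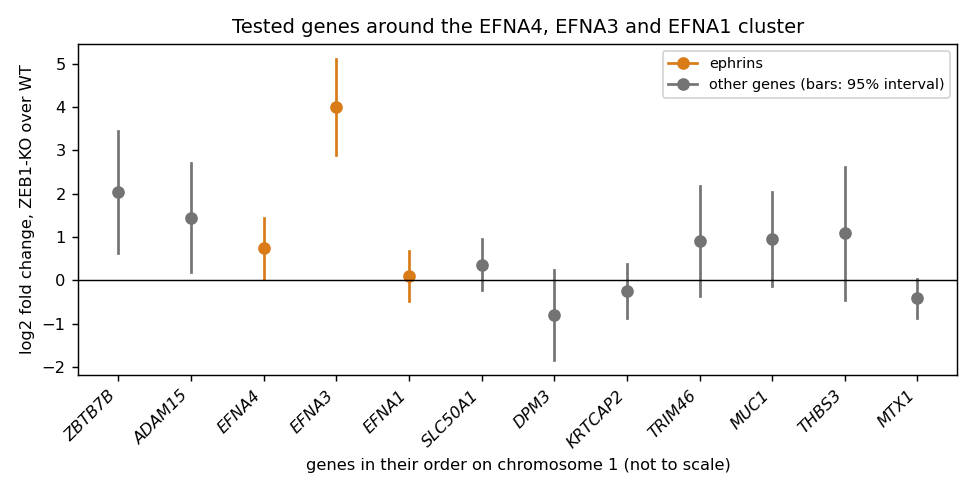
Log2 fold change, ZEB1-KO over WT, of EFNA4, EFNA3 and EFNA1 (orange) and of 9 tested neighbouring genes (grey) in their order on chromosome 1, with the 95% interval of the fit as a bar. Spacing is not to scale. EFNA3 reaches 4.01, the neighbours lie between -0.80 and 2.05, and the intervals of ZBTB7B and ADAM15 lie above 0.

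The other 12 Eph and ephrin genes were mostly near the floor, and 3 of them were tested. EFNB3, a further ephrin-B gene, had 88, 102 and 41 counts in ZEB1-KO replicates 1, 2 and 3, against 123, 69 and 101 counts in WT replicates 1, 2 and 3. Its log2 fold change of -0.15 (SE 0.49) changed sign with 6 of the alternatives. EPHA10, which encodes a receptor without kinase activity, had -0.37 (SE 0.39) and EPHA8 0.21 (SE 1.04). None of these 3 was called (lowest adjusted p = 0.654, edgeR's quasi-likelihood test), none had an unadjusted p below 0.05, and DESeq2 called 0. EPHA1 had 13, 24 and 5 counts in ZEB1-KO replicates 1, 2 and 3, against 3, 1 and 2 counts in WT replicates 1, 2 and 3, a pooled ratio of 7.61 with a counting interval of 3.22 to 21.9, and was too low to be tested. EFNA2 had 3, 14 and 9 counts in ZEB1-KO replicates 1, 2 and 3, against 6, 0 and 1 counts in WT replicates 1, 2 and 3. In CPM EFNA2 had 0.150, 0.346 and 0.280 in the ZEB1-KO clones and 0.137, 0 and 0.0405 in the WT clones. EPHB1 had 0, 7 and 35 counts in ZEB1-KO replicates 1, 2 and 3, so that 1 clone held most of them, against 0, 2 and 4 counts in WT replicates 1, 2 and 3. EPHA7 likewise had 46 counts in WT replicate 2, 0 in the other WT clones and 4 to 15 in ZEB1-KO clones. EPHA3, EPHA5, EPHB3 and EPHB6 had at most 10 counts in any library, and EPHA6 had 0 in all of them.

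Genes that act with Eph receptors and ephrins were read from lists of forward signalling, reverse signalling, turnover and proteases, which with the 12 further family members hold 83 genes, 59 of them tested. None was called in either direction with edgeR's quasi-likelihood test, and 12 of the 59 had an unadjusted p below 0.05 (7 higher, 5 lower) where 17.7% of all genes tested did. DESeq2 called 7 higher and 2 lower, where it called 4.34% and 2.78% of its genes. The likelihood ratio test called 5 higher and 2 lower, where it called 2.75% and 1.76% of its genes, or 4.52% in either direction. The median log2 fold change of the 59 was 0.08, with 33 positive and 26 negative.

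Among 28 tested genes of forward signalling, the 4 with the lowest p were NGEF, SRC, ROCK1 and CLDN4. NGEF, the exchange factor ephexin that acts downstream of EPHA4, had 1.62 CPM ± 0.539 in ZEB1-KO and 4.24 CPM ± 0.421 in WT clones (SD, n = 3 each) and a log2 fold change of -1.37 (adjusted p = 0.123). SRC, a kinase recruited by active receptors, had 46, 283 and 116 counts in ZEB1-KO replicates 1, 2 and 3, against 71, 34 and 22 counts in WT replicates 1, 2 and 3. In CPM SRC had 2.30, 6.99 and 3.61 in the ZEB1-KO clones and 1.63, 1.05 and 0.891 in the WT clones. Its log2 fold change was 1.85 (adjusted p = 0.123). ROCK1, a kinase that drives contraction of the actin cytoskeleton, had 51.8 CPM ± 8.36 in ZEB1-KO and 86.9 CPM ± 8.51 in WT clones (SD, n = 3 each; log2 fold change -0.75, adjusted p = 0.131). CLDN4, a claudin reported as an ephrin-B1 partner, had a log2 fold change of 1.61 with overlapping groups (adjusted p = 0.143).

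Of 8 tested genes of reverse signalling, 4 were positive. PICK1, a PDZ protein that binds ephrin-B ligands and several Eph receptors, had 40, 63 and 45 counts in ZEB1-KO replicates 1, 2 and 3, against 21, 11 and 11 counts in WT replicates 1, 2 and 3. The groups did not overlap, and the log2 fold change of 1.95 had an adjusted p of 0.0891, the lowest of all pathway lists. PARD6B, a polarity scaffold, had 2.09 (adjusted p = 0.171), mostly through the 1890 counts of ZEB1-KO replicate 3, and 0.74 without that library. PARD6A, its relative, had -1.03 (adjusted p = 0.284) and STAT3, a transcription factor reported in ephrin-B signalling, -1.22 (adjusted p = 0.123).

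Of the proteases, the 4 of lowest p were APH1A, NCSTN, PSEN2 and PSENEN, all gamma-secretase subunits. After a metalloprotease has shed the outer part of a receptor or an ephrin-B ligand, gamma-secretase is known to cut the part left in the membrane. APH1A had 292, 1379 and 263 counts in ZEB1-KO replicates 1, 2 and 3, against 220, 177 and 114 counts in WT replicates 1, 2 and 3 (log2 fold change 1.91, adjusted p = 0.116, and 1.17 without ZEB1-KO replicate 2). NCSTN had 69.3 CPM ± 25.1 in ZEB1-KO and 32.0 CPM ± 8.07 in WT clones, and PSEN2 16.7 CPM ± 2.64 in ZEB1-KO and 7.77 CPM ± 1.03 in WT clones (SD, n = 3 each). Their log2 fold changes were 1.12 (adjusted p = 0.138) and 1.10 (adjusted p = 0.107), and the groups did not overlap for APH1A, NCSTN and PSEN2, 3 of 9 tested members of the list, all higher, against 11.9% of all genes tested that were higher without overlap. PSENEN had -0.36 (adjusted p = 0.416). ADAM10, added after its values were seen and known as a main shedding protease of ephrins and Eph receptors, had 204.3 CPM ± 26.4 in ZEB1-KO and 205.9 CPM ± 40.8 in WT clones (SD, n = 3 each), and a log2 fold change of -0.01 (SE 0.22). Among 11 tested turnover genes, the 4 with the lowest p were PTPN1, a phosphatase of Eph receptors (-0.75, adjusted p = 0.207), CBL, a ubiquitin ligase (-0.60, adjusted p = 0.272), ANKS1A, an adaptor that binds EPHA2 and others (0.60, adjusted p = 0.309), and SASH1, a scaffold (-0.86, adjusted p = 0.315), all given as log2 fold changes from edgeR's quasi-likelihood fit.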

How the data were processed

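Messenger RNA was measured in 6 libraries, 3 from ZEB1-KO and 3 from WT clones, grouped by the sample titles. The members and gene lists were chosen with earlier results of these data known. Raw counts for each gene symbol were deposited, with TPM values for 11013 of these symbols, and for the same subset a table of log2 fold changes and log2 CPM, likelihood ratio scores, p-values and adjusted p-values, per the file headers. TopHat2 2.1.0, HTSeq 0.6.1 and edgeR 3.2.2 with builds hg19 and GRCh37 are named in the submitters' processing notes. How strand was handled is not stated in any source read here. SMART-Seq2 does not mark strand, so genes that overlap, such as EPHB4 with SLC12A9 and EPHA2 with an antisense RNA, may share reads.

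From the deposited counts, genes were kept with filterByExpr (minimum count 10, total 15), scaled with TMM factors and tested with the quasi-likelihood test of edgeR 4.0.16 in R 4.3.3, two-sided, adjusted over all 13659 genes, at a threshold of 0.05. P-values set the difference between groups against the spread between clones, which is estimated for each gene and in part shared across genes. CPM use TMM-scaled library sizes, and log2 CPM have a prior count of 2. A floor of 3 counts equals 0.0741 to 0.150 CPM in ZEB1-KO and 0.0687 to 0.122 CPM in WT libraries. Alternatives were other scaling and filters, DESeq2 1.42.0, the likelihood ratio test, limma-voom and limma on TPM (limma 3.58.1), a replicate block, and each library left out.

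Named genes were the members, ZEB1, the other Eph and ephrin genes, the chromosome 1 neighbours, up to 6 called genes per signalling list or, where fewer than 4 were called, the 4 of lowest p, and the 3 genes most like each of 3 members. Promoter windows came from RefSeq on GRCh38.p14, and the gene order from the same assembly. Some genes of these lists enter the counts and sums but are not reported here by name.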

Additional observations from a re-analysis of the deposited data

How the results depend on the processing

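Of the members' log2 fold changes under the alternatives, 160 kept their direction and their side of the threshold, 7 lost the EFNA3 call and 3 changed sign. The 3 came without ZEB1-KO replicate 2, at -0.069 for EFNA1, -0.19 for EPHA2 and -0.17 for EPHB4. Without each library in turn these genes ranged from -0.069 to 0.29, from -0.19 to 0.39 and from -0.17 to 0.69. The 1 member called higher became 0 without each of the 6 libraries (0 to 0), with the replicate block, with a filter of 1 CPM in 3 libraries and in the 3 fits on TPM, where EFNA3 was not among the genes tested in the last 4. The count of pathway genes called higher was 7 with DESeq2, 5 with the likelihood ratio test and 1 with limma on log2(TPM + 1) without a filter, and of those called lower 2 with DESeq2 and 2 with the likelihood ratio test. That fit with limma called 63 of its 11013 genes higher. The count of neighbour genes called higher was 1 with DESeq2 and 1 with the likelihood ratio test. EFNB3 turned to 0.00675 with the library size alone, to 0.033 with limma on log2(TPM + 1) with or without a filter and to 0.015 with log2(TPM + 0.1), and ranged from -0.66 to 0.19 without each library. EPHA8 ranged from -0.35 to 2.79 without each library. KRTCAP2 turned to 0.020 in all 3 fits on TPM. Library size alone moved the median of all genes by 0.15 and log2(TPM + 1) by 0.24. The difference in ligand share lay between 7.04 and 13.8 percentage points without each library and was 9.97 over members of at least 1 TPM. The cause of these changes was not tested.

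The sample titles number the replicates and do not say whether the numbers pair the clones, which 3 libraries per group are too few to decide. Deviations from the group means of same-numbered libraries correlated at 0.022, 0.007 and 0.224 over genes, and 1 of 3 ZEB1-KO and 1 of 3 WT libraries correlated best with its own number. With the replicate number as a block, EFNA3 had a log2 fold change of 3.97 and an adjusted p of 0.0662. At the depth of these libraries, EFNA3 in WT clones was too low for a statement about its absence. The same holds for the 9 untested of the 12 further family members, in the libraries where they had at most 3 counts. EPHA7, with 46 counts in WT replicate 2, and EPHB1, with 35 in ZEB1-KO replicate 3, were above that floor there.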
